A study of Rattus norvegicus with 14 samples.

Results

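Integrins, selectins and the immunoglobulin (Ig) family receptors that bind them were followed in the colon of rats with colitis induced by 2,4,6-trinitrobenzene sulfonic acid (TNBS). The genes were chosen by name: 34 gene symbols of these families were looked up in a table of read counts for 26319 genes, and all 34 were found. That choice was made with earlier results of these data known. All 34 also passed a filter on low counts that 18678 of the 26319 genes passed. The animals were male Wistar rats, of unstated age, and all were killed 72 h after treatment. Of these, 2 were controls and 6 received TNBS into the colon. The sample labels give the controls as vehicle without TNBS, while the authors call them untreated. From each of the 6 TNBS rats (animals 218 to 223) a sample came from an inflamed region of the distal colon and another from an uninflamed region that did not border it, while control samples (animals 216 and 217) came from random sections. RNA sequencing of these 14 pieces of tissue gave 3 comparisons, inflamed against uninflamed (I-UI), inflamed against control (I-C) and uninflamed against control (UI-C). TNBS colitis is a chemically induced acute model, and each library is bulk colon tissue, in which fewer cells of a type and less RNA per cell cannot be told apart.

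Leukocytes leave the blood in steps. Selectins on activated endothelium catch leukocytes through sugar-bearing ligands such as PSGL-1, and integrins on the leukocyte, once activated, bind Ig family receptors on the endothelium and hold the cell in place. Integrins are pairs of an alpha and a beta subunit. Other pairs anchor epithelial, muscle and stromal cells to laminins, collagens or fibronectin, and some release active TGF-beta from its latent complex. In the gut, alpha-4-beta-7 on lymphocytes binds the addressin MAdCAM-1 on mucosal venules, and alpha-E-beta-7 binds E-cadherin on epithelial cells.

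Uninflamed libraries held 7813797 to 13234808 reads, inflamed ones 6734968 to 13792657 and the controls 12013023 and 12041314. Some marker lists of cell types moved with the regions, and others did so less. The summed level of 9 neutrophil markers spanned 341 to 1999 CPM in inflamed, 13.1 to 28.2 in uninflamed and 16.8 to 20.9 in control samples (CPM, counts per unit of library size, scaled by the trimmed mean of M-values, TMM). Most of the inflamed sum was S100a9 and S100a8, with inflamed means of 670.7 and 274.5 CPM. Of the 7 that could be tested, 5 rose in I-UI by the threshold given below, while Mpo and Ltf did not pass. Summed levels of 10 epithelial markers were 3623 to 6653 CPM in uninflamed samples and 162 to 1214 in 5 inflamed samples, with 3901 in the inflamed sample of animal 221. Smooth muscle markers, 7 genes, summed to 3509 to 10530 CPM in uninflamed and 1095 to 3948 in inflamed samples. Sums of 8 monocyte and macrophage markers overlapped, at 204 to 393 CPM in uninflamed and 320 to 570 in inflamed samples. So did those of 5 dendritic cell markers (24.3 to 36.0 and 26.3 to 65.7) and of 8 glia and neuron markers (50.1 to 62.1 and 46.0 to 108). Of the 8 monocyte and macrophage markers, 5 had a positive log2 fold change in I-UI, and only Cd68 passed (2.05). Negative were C1qa (-0.54), C1qb (-0.42) and C1qc (-0.60). Levels of 6 B cell markers summed to 371 CPM in the inflamed sample of animal 218, 96.8 in the uninflamed sample of animal 220 and 78.3 in the inflamed sample of animal 223, against 13.96 to 25.6 in the other libraries. None of these lists had a defining marker at 0 in every library, and their part in the results was not tested.

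A gene was counted as changed where edgeR's quasi-likelihood test gave a Benjamini-Hochberg adjusted p under 0.05 over all 18678 genes and the fold change was 2 or more. In I-UI, 10 of the 34 genes rose (29.4%) and 2 fell (5.88%), where 5.88% of all genes tested rose and 6.72% fell. Those that rose were Itgam, Itgax, Itgb2, Itgb7, Itga5, Sele, Selplg, Icam1, Icam2 and Vcam1, and those that fell were Itga7 and Itgb4. A further 4 genes (Itga3, Itgav, Itgb3 and Pecam1) had an adjusted p under 0.05 with a smaller change. The median log2 fold change of the 34 was 0.59, beside 0.04 over all genes. Levels of 6 genes (17.6%) lay in every inflamed sample above every uninflamed sample, as did 4.32% of all genes, and for no member was the order reversed (5.2% of all genes). Within animals, 9 genes were higher in the inflamed region of 6 of 6 rats, 5 were lower in 6 of 6 and 20 were mixed. The share of all genes that did so was not counted, so these numbers only describe the members.

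**Figure D1:**
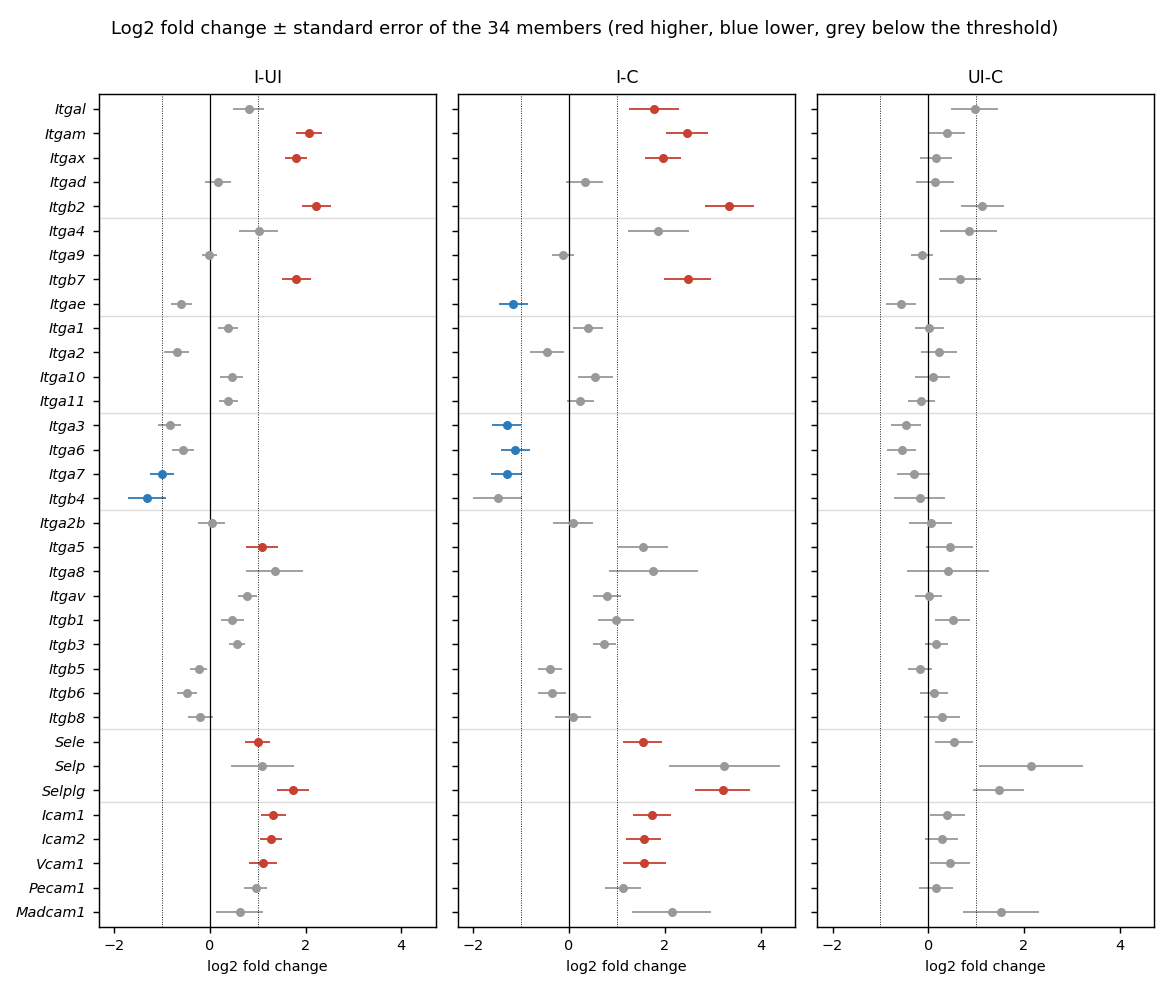
Log2 fold change (x axis) with its standard error for each of the 34 genes (rows, grouped by role) in I-UI, I-C and UI-C, with dotted lines at a 2-fold change; red is higher, blue is lower and grey did not pass the threshold. In I-UI the 10 red genes lie among leukocyte integrins, selectins and Ig receptors with Itga5 as the RGD-binding one, both blue genes are laminin-binding, and UI-C has no coloured gene.

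In I-C, 10 genes rose (29.4%) and 4 fell (11.8%), beside 5.85% and 7.72% of all genes, with a median log2 fold change of 0.89 (all genes 0.09). Levels of 15 genes (44.1%) were above both controls in every inflamed sample and those of 4 (11.8%) below, beside 14% and 14.3% of all genes. Among the genes that passed in I-UI, 9 also rose and 1 also fell in I-C, though both comparisons use the same inflamed libraries. In UI-C no member passed (0% of all genes rose and 0.145% fell). The smallest adjusted p there was 0.41 (edgeR quasi-likelihood), and 2 members had an unadjusted p under 0.05, as did 8.89% of all genes; edgeR's exact test, DESeq2 and limma-voom gave 6, 5 and 1 at that level and no call either. Levels of 8 members (23.5%) were nevertheless above both controls in every uninflamed sample (5.23% of all genes; below both, no member and 6.16% of all genes), namely Itgal, Itgb2, Itga4, Itgb1, Sele, Selp, Selplg and Madcam1. I-C and UI-C share the 2 controls, so they are not independent.

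Promoters were examined for motifs of factors active in leukocytes and inflamed endothelium. RefSeq upstream sequence (assembly GRCr8) was at hand for 23 of the 34 genes, as the 250 bases before each start, read on both strands. The NF-kB consensus occurred upstream of 3 of the 23 (Vcam1, Madcam1 and Itga5), beside 6.33% of 33469 rat promoters of the same length. The AP-1 motif TGANTCA occurred in 1 (Itgax; 6.34% of all promoters) and the PU.1 motif GAGGAAGT in 3 (Itga11, Itgav and Itgb6; 2.04%). Shown here are the 4 windows with an NF-kB or AP-1 match, 5′ to 3′ on the gene's strand with the match in capitals, because Vcam1, Itga5 and Itgax rose in I-UI and Madcam1 is the gut addressin. Icam1, Itgam, Itgb7 and Sele also rose in I-UI, and their windows had no match to any of these motifs. The genes with a PU.1 match did not pass in I-UI. A match describes these letters only, and a site spelled otherwise was not counted. For Vcam1 (chr2:206742784-206743033, minus strand) the match lies at -93 to -84 from the start, for Itga5 (chr7:136381306-136381555, minus strand) 2 overlapping matches span -180 to -170, for Madcam1 (chr7:10690323-10690572, minus strand) matches lie at -118 to -109 and -106 to -97, and for Itgax (chr1:192149799-192150048, plus strand) the AP-1 match lies at -56 to -50.
Vcam1: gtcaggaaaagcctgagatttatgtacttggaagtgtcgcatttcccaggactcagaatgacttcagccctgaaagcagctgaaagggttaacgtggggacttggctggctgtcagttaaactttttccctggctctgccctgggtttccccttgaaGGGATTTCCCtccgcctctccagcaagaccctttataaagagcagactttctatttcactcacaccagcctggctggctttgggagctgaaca
Itga5: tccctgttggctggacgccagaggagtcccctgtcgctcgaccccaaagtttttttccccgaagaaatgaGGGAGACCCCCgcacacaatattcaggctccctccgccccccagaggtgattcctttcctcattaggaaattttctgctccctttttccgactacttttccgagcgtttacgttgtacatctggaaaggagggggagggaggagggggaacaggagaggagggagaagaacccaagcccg
Madcam1: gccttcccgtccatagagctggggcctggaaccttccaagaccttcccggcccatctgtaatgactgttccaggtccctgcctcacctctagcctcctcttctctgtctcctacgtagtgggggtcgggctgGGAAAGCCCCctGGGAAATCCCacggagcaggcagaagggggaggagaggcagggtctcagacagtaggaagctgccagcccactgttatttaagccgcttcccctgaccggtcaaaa
Itgax: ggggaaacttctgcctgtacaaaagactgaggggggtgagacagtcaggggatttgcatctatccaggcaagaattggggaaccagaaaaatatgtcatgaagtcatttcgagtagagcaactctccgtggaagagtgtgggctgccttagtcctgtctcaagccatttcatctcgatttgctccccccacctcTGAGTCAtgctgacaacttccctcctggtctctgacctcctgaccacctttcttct

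The leukocyte beta-2 integrins share the subunit Itgb2 (CD18), which pairs with Itgal (CD11a, LFA-1), Itgam (CD11b, Mac-1), Itgax (CD11c) or Itgad (CD11d). In I-UI, 3 of the 5 rose, all 5 had a positive log2 fold change and their median was 1.80. Itgb2 was at 7.12 and 6.04 CPM in the controls (animals 216 and 217), at 8.53, 11.5 and 30.0 CPM (lowest, median, highest) in uninflamed samples and at 34.5, 74.3 and 92.0 in inflamed samples. The 3 groups followed each other without overlap. Its log2 fold change was 2.23 ± 0.30 (SE) in I-UI (adjusted p = 0.000261) and 3.35 ± 0.52 in I-C (adjusted p = 0.00119). For UI-C it was 1.13 ± 0.45 (adjusted p = 0.49).

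Itgam, the alpha subunit of the complement receptor of neutrophils and macrophages, was at 18.1 and 17.5 CPM in controls, 14.5, 23.9 and 28.9 in uninflamed and 39.8, 120.0 and 127 in inflamed samples. Every inflamed sample exceeded every uninflamed and control sample, and uninflamed samples lay on both sides of the controls. The log2 fold change was 2.08 ± 0.28 in I-UI (adjusted p = 0.000213) and 2.47 ± 0.44 in I-C (adjusted p = 0.00247). Itgax, carried by dendritic cells and by macrophages, was at 6.35 and 4.20 CPM in controls, 4.46, 5.30 and 10.3 in uninflamed and 16.2, 19.2 and 32.1 in inflamed samples, again with no inflamed sample among the others. It rose by 1.80 ± 0.24 in I-UI (adjusted p = 0.000209) and by 1.97 ± 0.37 in I-C (adjusted p = 0.0033). The I-C call of Itgax was lost without control 217 (log2 fold change 1.71, adjusted p = 0.0611).

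Itgal, the alpha subunit of the leukocyte integrin LFA-1, was at 15.6 and 10.9 CPM in controls, 17.2, 22.3 and 49.3 in uninflamed and 25.8, 40.4 and 95.6 in inflamed samples. All TNBS samples exceeded both controls, while the 2 regions overlapped. Its change in I-UI was 0.81 ± 0.33 (adjusted p = 0.0864) and in I-C 1.78 ± 0.52 (adjusted p = 0.0303). The highest uninflamed sample was animal 220 and the highest inflamed one animal 218, the same libraries that had the highest B cell marker sums of their regions and the highest T cell marker sums (94.0 and 289 CPM, beside 41.2 to 73.4 in the other uninflamed and 65.7 to 200 in the other inflamed samples). Dendritic cell marker sums were highest in those libraries too (36.0 and 65.7 CPM), and which cells held the reads of Itgal was not tested. Without animal 220, Itgal passed in I-UI (1.197, adjusted p = 0.0148), and without animal 218 it was 0.47 (adjusted p = 0.23). The I-C call of Itgal was lost without control 216 (2.06, adjusted p = 0.128), control 217 (1.54, adjusted p = 0.225) or animal 222 (1.79, adjusted p = 0.0553). Itgad, found on some tissue macrophages, was at 2.98 and 5.51 CPM in controls, between 3.26 and 7.32 in uninflamed samples and between 2.90 and 9.53 in inflamed ones, and its change of 0.17 ± 0.27 in I-UI did not pass (adjusted p = 0.67).

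**Figure D2:**
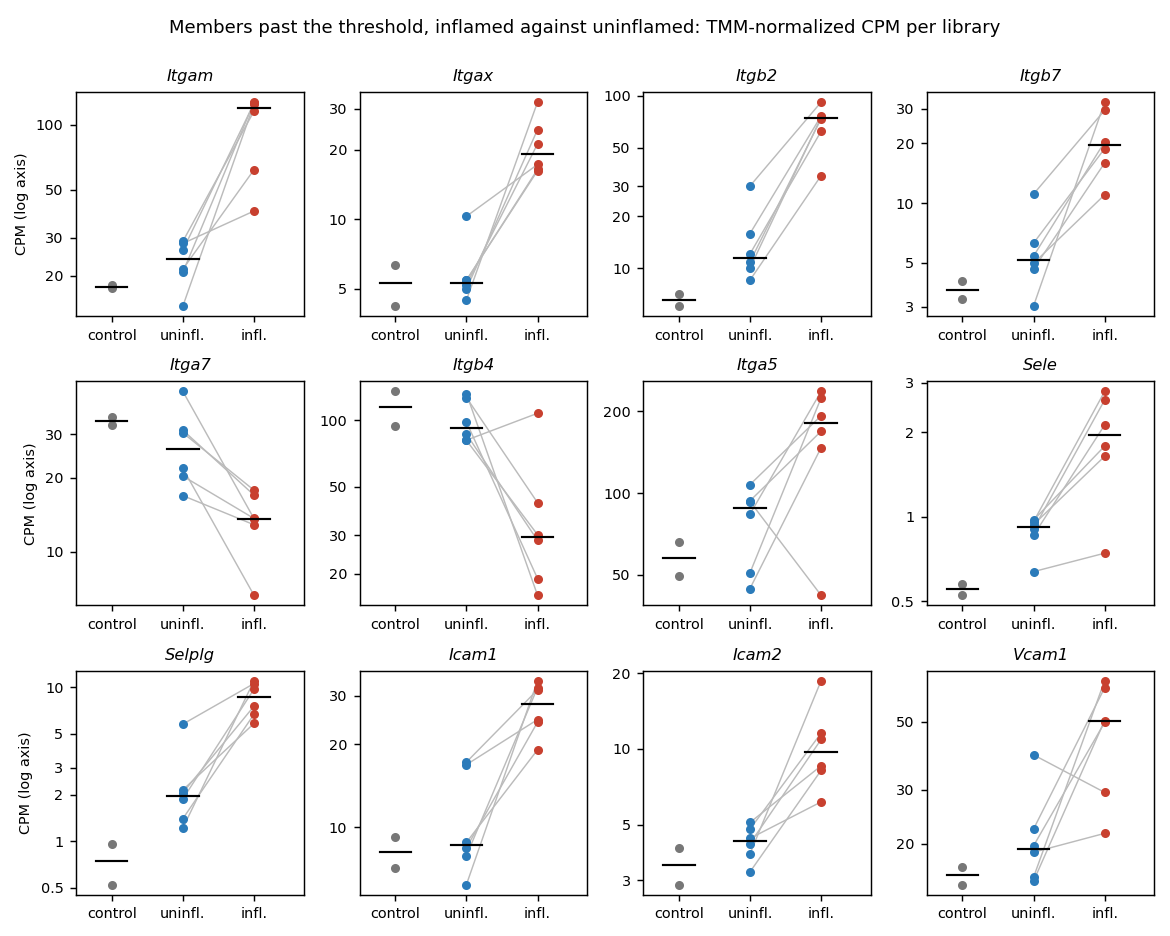
TMM-normalized CPM (log y axis, own scale in each panel) of the 12 genes that passed in I-UI, for control, uninflamed and inflamed samples; points are libraries, bars are medians and grey lines join the regions of a rat. Inflamed samples of Itgam, Itgax, Itgb2, Selplg, Icam1 and Icam2 all lie above the uninflamed ones, while 1 inflamed sample of Itga5 (42.1 CPM) and 1 of Itgb4 (108 CPM) lie apart from the other 5.

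Of the subunits for mucosal homing, Itgb7 rose. Itgb7, which pairs with Itga4 or Itgae on gut lymphocytes, was at 4.04 and 3.28 CPM in controls, 3.03, 5.19 and 11.1 in uninflamed and 11.01, 19.6 and 32.3 in inflamed samples. The ranges of the 2 regions touched: the highest uninflamed sample (animal 220) was just above the lowest inflamed one (animal 221), yet the inflamed region was higher in 6 of 6 rats. The log2 fold change was 1.81 ± 0.30 in I-UI (adjusted p = 0.000812) and 2.48 ± 0.49 in I-C (adjusted p = 0.00411), and the latter call was lost without control 217 (2.34, adjusted p = 0.0625). Itgb7 overlaps Znf740 in the GRCr8 annotation, and since use of strand in the counting is not stated, reads of overlapping genes cannot be told apart.

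Itga4, the alpha-4 chain that binds VCAM-1 and MAdCAM-1, was at 20.8 and 22.2 CPM in controls, 27.3, 32.5 and 77.2 in uninflamed and 36.2, 55.4 and 196 in inflamed samples. All 12 TNBS samples lay above the controls, and the regions overlapped through the uninflamed sample of animal 220 (the other 5 were at 35.5 or less). In I-UI the change was 1.02 ± 0.40 (adjusted p = 0.0799) and in I-C 1.86 ± 0.64 (adjusted p = 0.0591). Without animal 220, Itga4 passed in both I-UI (1.47, adjusted p = 0.0161) and I-C (2.00, adjusted p = 0.0303); without animal 218 it was 0.48 in I-UI (adjusted p = 0.27). With all animals it also passed by edgeR's exact test and by DESeq2, in I-UI (adjusted p = 0.0391 and 0.043) and in I-C (0.0385 and 0.0089). The inflamed sample of animal 218 was at 196 CPM for Itga4 and the other 5 at 36.2 to 88.2. Itga4 overlaps Cerkl in GRCr8.

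Itgae, the alpha-E chain (CD103) of lymphocytes within the epithelium, went the other way. Its levels were 566 and 921 CPM in controls, 404, 447 and 742 in uninflamed and 261, 309 and 452 in inflamed samples, and the inflamed region was lower in 6 of 6 rats. The change was -0.60 ± 0.22 in I-UI, which did not pass (adjusted p = 0.0658), and -1.16 ± 0.30 in I-C, which did (adjusted p = 0.0158). The I-C call of Itgae was lost without control 217, the higher control (-0.78, adjusted p = 0.26). Epithelial marker sums were 6955 and 3441 CPM in the controls and T cell marker sums 33.9 and 390. Most of the T cell sum of control 217 was Cd4. The Cd4 mean of 181 CPM over the 2 controls exceeded the whole T cell sum of control 216, so it came mainly from control 217. Each other T cell marker had a control mean between 0.87 and 9.80 CPM. In I-UI, unlike Itgae, all 10 T cell markers had a positive log2 fold change, of which 1 passed. Which cells held the reads of Itgae was not tested. Itgae overlaps Haspin in GRCr8. Itga9, which binds tenascin and VCAM-1, was at 59.6 and 67.7 CPM in controls, between 45.5 and 69.1 in uninflamed samples and between 37.4 and 74.1 in inflamed ones, with an I-UI change of -0.01 ± 0.15 (adjusted p = 0.98) whose sign depended on the scaling.

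Of the selectins, Sele rose in I-UI and Selp varied too much to pass. Sele (E-selectin), made by activated endothelium, had 4 to 46 reads per library. It was at 0.58 and 0.53 CPM in controls, 0.64, 0.92 and 0.97 in uninflamed and 0.74, 1.95 and 2.79 in inflamed samples, higher in the inflamed region of 6 of 6 rats. Only the inflamed sample of animal 218 fell within the uninflamed range. Its log2 fold change was 1.00 ± 0.26 in I-UI (adjusted p = 0.0106) and 1.54 ± 0.41 in I-C (adjusted p = 0.0185). The I-UI value of Sele lay at the 2-fold limit, and the call was lost without control 217 (1.00 before and 0.996 after), animal 220 (0.93), animal 222 (0.96) or animal 223 (0.88, adjusted p = 0.0557), while its I-C call was lost without control 216 (adjusted p = 0.132) or 217 (adjusted p = 0.136). Sele also missed 2-fold in I-UI with RLE scaling (0.989, adjusted p = 0.0104) and the p threshold in I-C by limma-voom (adjusted p = 0.0591).

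Selp (P-selectin), stored in endothelial cells and platelets, was at 2.79 and 3.28 CPM in controls, 3.78, 5.02 and 57.6 in uninflamed and 11.8, 28.7 and 54.2 in inflamed samples. A single library set the uninflamed maximum: the uninflamed sample of animal 221 was at 57.6 CPM (615 reads), 6.55 times the next one, and the other 5 were at 3.78 to 8.80, below every inflamed sample. Selp was higher in the inflamed region of 5 of 6 rats. With all animals the change was 1.10 ± 0.66 in I-UI (adjusted p = 0.25), 3.24 ± 1.16 in I-C (adjusted p = 0.0724) and 2.15 ± 1.09 in UI-C (adjusted p = 0.61). Without animal 221, Selp passed in I-UI (2.54, adjusted p = 0.000175) and in I-C (3.34, adjusted p = 0.000901). With all animals Selp passed in I-UI by limma-voom (1.79, adjusted p = 0.0311) and in I-C by edgeR's exact test (adjusted p = 4.764e-06) and DESeq2 (adjusted p = 0.00204). Sums of 6 platelet marker genes (7 rows of the table) were 7.12 and 7.88 CPM in controls, between 5.75 and 8.44 in uninflamed samples and between 11.2 and 34.7 in inflamed ones, and 7.03 in the uninflamed sample of animal 221.

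Selplg (PSGL-1), the selectin ligand on leukocytes, had 4 to 181 reads per library. Its levels were 0.96 and 0.53 CPM in controls, 1.22, 1.98 and 5.75 in uninflamed and 5.81, 8.61 and 10.99 in inflamed samples. As with Itgb2, the 3 groups did not overlap, although the highest uninflamed sample (animal 220, 2.67 times the next) nearly met the lowest inflamed one. Selplg rose by 1.74 ± 0.33 in I-UI (adjusted p = 0.00165) and by 3.21 ± 0.57 in I-C (adjusted p = 0.00247), and its UI-C change of 1.47 ± 0.53 had the smallest adjusted p of the 34 genes in that comparison (0.41).

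The Ig family receptors are displayed by endothelium, though not only there. ICAM-1 and ICAM-2 bind the beta-2 integrins of leukocytes, VCAM-1 binds alpha-4-beta-1, MAdCAM-1 binds alpha-4-beta-7, and PECAM-1 sits at endothelial junctions that leukocytes cross. In I-UI 3 of the 5 rose, with a median of 1.12. Sums of 10 blood endothelial markers were 80.3 and 94.8 CPM in controls, between 84.5 and 115 in uninflamed samples and between 134 and 227 in inflamed ones, and their part in these changes was not tested. Of these 10 markers, 9 had a positive change in I-UI and 2 passed. Which cells held the reads of the Ig receptors was not tested. Icam1 was at 9.23 and 7.09 CPM in controls, 6.19, 8.62 and 17.2 in uninflamed and 19.1, 28.0 and 33.95 in inflamed samples. Inflamed samples all lay above the rest, and the 2 highest uninflamed samples stood clear of the other 4. The change was 1.33 ± 0.25 in I-UI (adjusted p = 0.00177) and 1.73 ± 0.40 in I-C (adjusted p = 0.00885).

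Icam2, present on resting endothelium and platelets, was at 4.04 and 2.89 CPM in controls, 3.24, 4.30 and 5.10 in uninflamed and 6.15, 9.72 and 18.6 in inflamed samples. Its regions did not overlap, and the highest value, in animal 218, was 1.62 times the next. Icam2 rose by 1.28 ± 0.24 in I-UI (adjusted p = 0.00142) and 1.56 ± 0.37 in I-C (adjusted p = 0.00985), and it overlaps Prr29 in GRCr8. The I-C calls rested on both controls: without control 216 the adjusted p was 0.0605 for Icam1 and 0.0554 for Icam2, and without control 217 it was 0.109 and 0.117.

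Vcam1, whose NF-kB match is shown in capitals above, was at 16.8 and 14.7 CPM in controls, 15.1, 19.2 and 39.0 in uninflamed and 21.6, 50.1 and 68.0 in inflamed samples. The regions overlapped, and animal 220 was higher in its uninflamed region, the reverse of the other 5 rats. The change was 1.12 ± 0.29 in I-UI (adjusted p = 0.0115) and 1.57 ± 0.45 in I-C (adjusted p = 0.0269). The I-UI call of Vcam1 was lost without animal 222 (1.01, adjusted p = 0.0514) or 223 (0.90, adjusted p = 0.0678), and the I-C call without control 216 (adjusted p = 0.149), control 217 (adjusted p = 0.188) or animal 219 (adjusted p = 0.0521).

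Pecam1 was at 13.2 and 23.0 CPM in controls, 12.3, 18.5 and 35.5 in uninflamed and 26.7, 38.4 and 55.3 in inflamed samples. Its change in I-UI was 0.95 ± 0.25 (adjusted p = 0.0112), just short of 2-fold, and in I-C 1.12 ± 0.37 (adjusted p = 0.051). Without animal 220 Pecam1 passed in I-UI (1.22, adjusted p = 0.00343) and in I-C (1.15, adjusted p = 0.0304), and in I-C also without animal 221 (1.21, adjusted p = 0.0398). In I-C Pecam1 passed too with upper quartile scaling, DESeq2 or limma-voom (adjusted p from 0.0202 to 0.0439). Madcam1, with 4 to 102 reads, was at 1.15 and 0.53 CPM in controls, 1.37, 1.97 and 6.49 in uninflamed and 0.95, 3.73 and 10.8 in inflamed samples. The gut addressin was thus higher in the inflamed region of 3 rats and lower in that of the other 3, and its I-UI change was 0.62 ± 0.50 (adjusted p = 0.39). As for Itga4, the highest inflamed sample of Madcam1 was animal 218 and the highest uninflamed one animal 220, the libraries with B cell marker sums of 371 and 96.8 CPM. Without animal 218 the I-UI change of Madcam1 was 0.04 (adjusted p = 0.95). In I-C it was 2.14 ± 0.83 (adjusted p = 0.0933) and passed by edgeR's exact test (adjusted p = 0.0373) and DESeq2 (adjusted p = 0.0203).

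**Figure D3:**
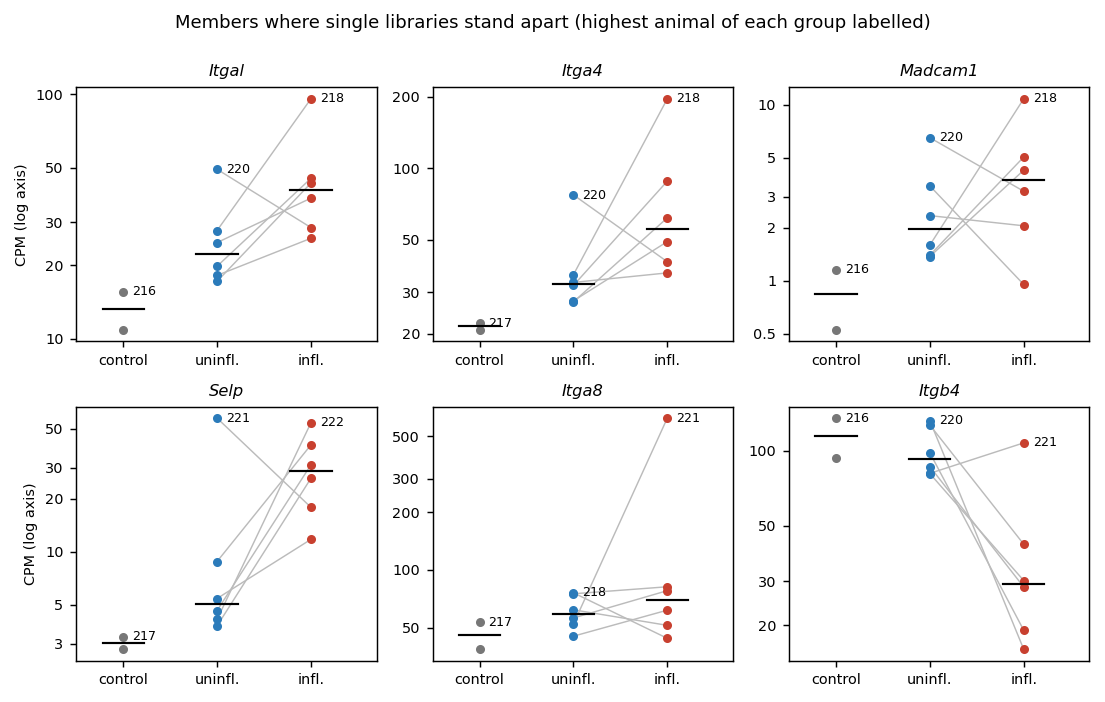
TMM-normalized CPM (log y axis, own scale in each panel) of 6 genes with a library that stands apart, for control, uninflamed and inflamed samples; bars are medians, grey lines join the regions of a rat and the highest animal of each group is numbered. Inflamed animal 218 is highest for Itgal (95.6), Itga4 (196) and Madcam1 (10.8), uninflamed animal 221 for Selp (57.6) and inflamed animal 221 for Itga8 (622) and Itgb4 (108).

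All 4 laminin-binding subunits had a negative change in I-UI (median -0.92). Itgb4, the beta-4 chain of epithelial hemidesmosomes, was at 135 and 93.9 CPM in controls, 81.1, 92.4 and 132 in uninflamed and 16, 29.3 and 108 in inflamed samples. In 5 rats the inflamed region was lower, at 16 to 42.2 CPM, and in animal 221 it was higher, at 108 CPM. That library also had the highest epithelial marker sum of the inflamed samples (3901 CPM, beside 162 to 1214). Itgb4 fell by 1.31 ± 0.39 in I-UI (adjusted p = 0.0245), and its I-C change was -1.49 ± 0.51 (adjusted p = 0.0583). The I-UI call was lost without animal 218, 219, 220, 222 or 223 (log2 fold changes from -1.29 to -1.06, adjusted p from 0.0551 to 0.0813), while without animal 221 the values of Itgb4 were -1.97 in I-UI (adjusted p = 0.000126) and -2.09 in I-C (adjusted p = 0.000491). With all animals Itgb4 passed in I-C by edgeR's exact test, DESeq2 and limma-voom (adjusted p from 0.0293 to 0.0373).

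Itga7, the laminin receptor chain of muscle, was at 32.9 and 35.2 CPM in controls, 16.9, 26.1 and 44.8 in uninflamed and 6.67, 13.7 and 17.8 in inflamed samples, lower in the inflamed region of 6 of 6 rats. Every inflamed sample was under both controls, and the lowest, animal 218, was also the inflamed sample with the lowest smooth muscle marker sum (1095 CPM). Itga7 fell by 1.01 ± 0.25 in I-UI (adjusted p = 0.00903) and by 1.31 ± 0.33 in I-C (adjusted p = 0.015). Lying at the 2-fold limit, the I-UI call of Itga7 was lost with the animal as a block (-0.99, adjusted p = 0.0122), with upper quartile scaling (-0.98), with no filter (-0.995), by limma-voom (-0.99), without animal 218 (-0.93) and without animal 223 (-0.81, adjusted p = 0.0481), and the I-C call without control 216 (adjusted p = 0.0853) or 217 (adjusted p = 0.108). Itga7 overlaps Mettl7b in GRCr8.

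Itga3, partner of beta-1 in epithelial laminin receptors, was at 70.9 and 49.0 CPM in controls, 33.5, 43.4 and 54.7 in uninflamed and 12.2, 23.7 and 41.2 in inflamed samples. The inflamed region was lower in 6 of 6 rats. Its I-UI change of -0.84 ± 0.23 had an adjusted p of 0.0159 without reaching 2-fold, and without animal 221 it did reach it (-1.10, adjusted p = 0.00236). In I-C Itga3 fell by 1.31 ± 0.31 (adjusted p = 0.0103). Itga6, partner of beta-4 in hemidesmosomes, was at 182 and 109 CPM in controls, 71.2, 99.5 and 121 in uninflamed and 44.2, 62.9 and 106 in inflamed samples, with changes of -0.56 ± 0.22 in I-UI (adjusted p = 0.079) and -1.12 ± 0.30 in I-C (adjusted p = 0.0187). Without control 216, the higher control for both, the I-C calls of Itga3 (-1.01, adjusted p = 0.163) and Itga6 (-0.71, adjusted p = 0.32) were lost.

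None of the 4 collagen-binding alpha subunits passed in any comparison. In I-UI the changes were 0.38 ± 0.22 for Itga1 (adjusted p = 0.21), 0.46 ± 0.24 for Itga10 (adjusted p = 0.18), 0.38 ± 0.20 for Itga11 (adjusted p = 0.18) and -0.69 ± 0.26 for Itga2 (adjusted p = 0.0649). Itga2, the collagen receptor chain of epithelium and platelets, was at 45.1 and 25.6 CPM in controls, 30.3, 40.4 and 59.6 in uninflamed and 15.3, 21.3 and 39.1 in inflamed samples. It was lower in the inflamed region of 6 of 6 rats, by as little as 0.05 on the log2 scale in animal 221. Itga1, of smooth muscle and tissue T cells, was at 92.8 and 102 CPM in controls and reached 198 in the inflamed sample of animal 222, with the other groups inside 72.3 to 120. Itga1 overlaps Pelo in GRCr8. Itga10 had 18 to 69 reads per library, and Itga11, of fibroblasts, 81 to 200.

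Of the 9 RGD-binding and TGF-beta-activating subunits 1 rose in I-UI. Itga5, the fibronectin receptor chain whose NF-kB matches are shown above, was at 65.9 and 49.5 CPM in controls, 44.5, 88.3 and 107 in uninflamed and 42.1, 181 and 236 in inflamed samples. In 5 rats the inflamed sample lay at 147 to 236 CPM, above every uninflamed sample, and in animal 218 at 42.1 it was under all of them. The log2 fold change was 1.09 ± 0.34 in I-UI (adjusted p = 0.0278) and 1.54 ± 0.52 in I-C (adjusted p = 0.0546). With the animal as a block the I-UI call of Itga5 was lost (1.03, adjusted p = 0.093), as it was without animal 219 (1.15, adjusted p = 0.0605), 221 (0.99, adjusted p = 0.066), 222 (0.90, adjusted p = 0.115) or 223 (0.99, adjusted p = 0.101). Without animal 218, Itga5 was at 1.34 in I-UI (adjusted p = 0.00218) and passed in I-C (1.74, adjusted p = 0.00503). By limma-voom its I-UI call was lost (0.95, adjusted p = 0.0742), and in I-C it passed with upper quartile scaling (adjusted p = 0.0469) or DESeq2 (adjusted p = 0.0111).

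Itgb1, the common partner of many alpha subunits, was at 328 and 242 CPM in controls, 337, 411 and 454 in uninflamed and 229, 609 and 735 in inflamed samples. As with Itga5, the inflamed sample of animal 218 was the lowest, and the other 5 (532 to 735) lay above every uninflamed sample. The change of Itgb1 in I-UI was 0.47 ± 0.25 (adjusted p = 0.18), and in I-C it was 0.98 ± 0.37 (adjusted p = 0.0872), passing without animal 218 (1.14, adjusted p = 0.0053). Itgav, which activates TGF-beta with its beta partners, was at 60.1 and 54.2 CPM in controls, 43.8, 59.2 and 67.1 in uninflamed and 66.1, 93.6 and 147 in inflamed samples, a change of 0.79 ± 0.20 in I-UI (adjusted p = 0.0104). Itgb3, its partner in the vitronectin receptor, was at 20.8 and 26.0 CPM in controls, 20.2, 26.9 and 35.1 in uninflamed and 29.3, 39.2 and 50.0 in inflamed samples and was higher in the inflamed region of 6 of 6 rats, by 0.57 ± 0.17 (adjusted p = 0.0227). Both stayed under 2-fold.

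Itga8, an RGD-binding chain of smooth muscle and mesenchymal cells, had its highest value in 1 library. The inflamed sample of animal 221 held 9095 reads of it, 622 CPM, which was 7.61 times the next inflamed sample. The other 5 inflamed samples were at 44.0 to 81.7 CPM, uninflamed samples at 45.1 to 76.0 and controls at 38.6 and 53.3. With all animals Itga8 had a log2 fold change of 1.35 ± 0.60 in I-UI (adjusted p = 0.11), which passed by edgeR's exact test (adjusted p = 0.0446), and without animal 221 it was -0.01 (adjusted p = 0.98). The smooth muscle marker sum of that library was 3219 CPM, inside the range of the other inflamed samples.

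The remaining 4 of this group did not pass. Itgb6, the epithelial TGF-beta-activating chain, was at 29.5 and 21.1 CPM in controls, between 25.7 and 32.3 in uninflamed samples and between 10.6 and 26.9 in inflamed ones, lower in the inflamed region of 6 of 6 rats by 0.01 to 1.27 on the log2 scale (I-UI change -0.48 ± 0.21, adjusted p = 0.11). Itgb5 changed by -0.23 ± 0.18 (adjusted p = 0.37), with its lowest inflamed value, 27.4 CPM, in animal 218. Itgb8 changed by -0.20 ± 0.26 (adjusted p = 0.62) and Itga2b, the platelet chain with 15 to 56 reads, by 0.04 ± 0.27 (adjusted p = 0.94).

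**Figure D4:**
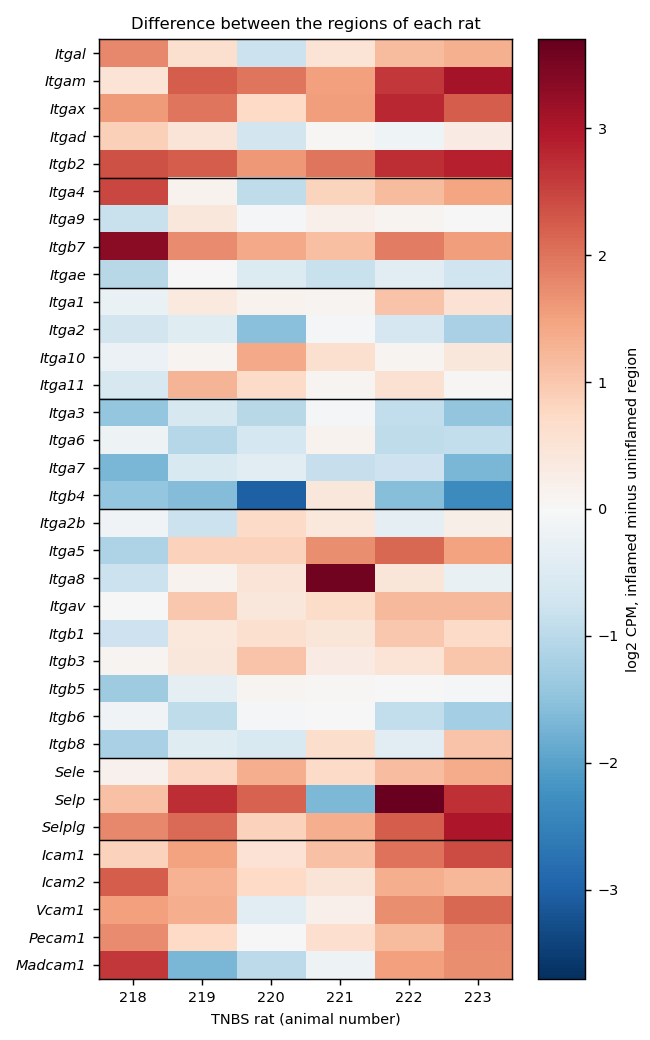
Difference in log2 CPM between the inflamed and the uninflamed region (colour, red higher in inflamed) for each of the 34 genes (rows, grouped by role) in each TNBS rat (columns). Itgb2 is red in all 6 rats (1.61 to 2.88), Itga7 is blue in all 6 (-1.70 to -0.39), and Selp and Itga8 have their opposite or extreme value in animal 221.

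Over the 10 genes that rose in I-UI, the median difference between the regions of a rat was 0.85 in animal 220, 1.24 in animal 221, 1.55 in animal 218, 1.62 in animal 219, 2.07 in animal 222 and 2.19 in animal 223. Animal 220 had the highest uninflamed level for 8 of these 10 genes and for 14 of all 34. Animal 221 had the lowest inflamed level for 7 of the 10 and also the lowest neutrophil marker sum of the inflamed samples (341 CPM). Animal 223 had the highest inflamed level for 5 of the 10, with a neutrophil sum of 838 CPM, while the highest neutrophil sum (1999 CPM) was that of animal 220. These levels helped to set the calls, so the order of the rats is a description.

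Other genes of leukocyte and matrix adhesion are read beside the 5.88% of all genes that rose and the 6.72% that fell in I-UI. Their lists were also chosen with earlier results of these data known. Of 23 genes for integrin activation and adaptors, 3 rose in I-UI and none fell (median log2 fold change 0.33): Msn (moesin, a membrane to actin linker, 1.72, adjusted p = 0.000419), Parvg (parvin gamma of leukocytes, 1.68) and Zyx (zyxin of focal adhesions, 1.19). Of 20 further leukocyte adhesion and transmigration genes that could be tested, 4 rose and 3 fell (median 0.44). Cd44 (a hyaluronan receptor) rose by 1.29 (adjusted p = 0.00136), and F11r (the junction protein JAM-A) and Fut4 (an enzyme of selectin ligand sugars) fell by 1.82 and 1.41. Of 23 soluble or matrix ligands tested, 9 rose and none fell (median 0.89), among them Thbs1 (thrombospondin-1, 3.53), Spp1 (osteopontin, 5.22), Tnc (tenascin-C, 3.12) and Tnn (tenascin-N, 2.30). In I-C the same lists gave 5 higher and 1 lower, 4 higher and 2 lower, and 14 higher and none lower, and in UI-C none passed.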

How the data were processed

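Total RNA of rat colon was depleted of ribosomal RNA and sequenced on a SOLiD 5500xl instrument in 14 libraries. The deposited values are raw read counts per gene, for which the authors aligned 50-base reads to Rnor_5.0 with Ensembl annotation in CLC Genomics Workbench. Reads with several matches were allowed within a limit, so near-identical genes may share reads.

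Counts were filtered with filterByExpr (minimum count 10) and tested in R 4.3.3 with edgeR 4.0.16 (TMM, robust quasi-likelihood, 1 coefficient per group, all libraries, prior count 2), and the standard error is the log2 fold change divided by the square root of F. CPM values are not corrected for gene length, so levels of different genes were not compared. Alternatives were DESeq2 1.42.0, limma-voom (limma 3.58.1), edgeR's exact test, other scaling, no filter, leaving out each animal and the animal as a block. Animal numbers in the labels pair the 2 regions of a rat, whose deviations from their group means correlated from -0.12 to 0.19 across genes. For animals 218, 219 and 220 the uninflamed region correlated more with another rat's inflamed region (0.147, 0.139 and 0.225) than with its own (-0.047, 0.084 and -0.121). The counts of rats rest on the labels. All 34 members are described, and up to 4 changed genes of each further list are named, those of smallest adjusted p, except 1 that is not reported here. The members and lists were chosen with earlier results of these data known. Scripts were tested on simulated data.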

Additional observations from a re-analysis of the deposited data

Results flagged for a closer look

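In 11 of 68 groups of 6 libraries examined (34 genes in 2 regions), 1 library's TMM-normalized log2 CPM lay farther from the others than Dixon's 95% limit allows. Chance gives this in about 1 of 20 groups, and these groups are not independent, since the genes share libraries. The inflamed sample of animal 218 was lowest for Itga7 (6.67 CPM), Itga5 (42.1), Itgb1 (229) and Itgb5 (27.4). The uninflamed sample of animal 220 was highest for Itgax (10.3), Itga4 (77.2) and Selplg (5.75). In animal 221 the inflamed sample was highest for Itga8 (622) and the uninflamed sample was highest for Selp (57.6). Among uninflamed samples, animal 219 was highest for Itgb6 (32.3) and animal 218 lowest for Sele (0.64).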

How the results depend on the processing

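Over 18 alternatives, 7 of the 12 I-UI calls (Itgam, Itgax, Itgb2, Itgb7, Selplg, Icam1, Icam2) passed in every one, and over 16 alternatives 3 of the 14 I-C calls (Itgam, Itgb2, Selplg) did; no called member changed direction under those settings. The I-C comparison rests on 2 controls. Leaving out either control gave fewer I-C calls among the members and also among all genes. In those fits the spread of a lone control is assumed to match that of the other groups. Leaving out 1 animal at a time, controls included, I-UI gave 7 to 12 genes higher (7 without animal 222 or 223) and 0 to 3 lower (0 without animal 218 or 223), I-C gave 3 to 12 higher and 1 to 5 lower, and UI-C gave 0. Over all 18678 genes, I-UI with every animal gave 1099 higher and 1255 lower. Over all genes tested it gave 889 and 1071 without animal 222 and 807 and 902 without animal 223. Without animals 218, 220 or 221, each in turn, it gave 1223 and 1365, 1100 and 1098, and 1073 and 1533. With upper quartile scaling, with no filter, with limma-voom and with the animal as replicate block, 1 member was lower in I-UI instead of 2. Over all genes those settings gave 1190, 1184, 1345 and 1218 lower. The replicate block gave 9 higher and 1 lower (877 and 1218 of 17174 genes) and changed no other I-UI call than those of Itga5 and Itga7. In UI-C 0 members passed in any setting, with 1 to 6 at an unadjusted p under 0.05. Chosen after seeing the data were a smaller prior count, which kept 10 and 2 calls in I-UI, and leaving out animals 220 and 221 together, which gave 12 higher and 3 lower. Over all genes the smaller prior count gave 1146 higher and 1296 lower in I-UI, and leaving out both animals gave 1096 and 1438.

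Signs turned only for members that did not pass. In I-UI, Itga9 was 0.023 with upper quartile scaling, 0.0041 with no filter and -0.087 to 0.13 leaving out animals, and the ranges for Itgad, Itga2b and Itga8 were -0.040 to 0.39, -0.086 to 0.17 and -0.0086 to 1.63. In I-C the ranges were -0.050 to 0.79 for Itgad, -0.40 to 0.72 for Itga2b and -0.011 to 0.21 for Itgb8. In UI-C they were -0.063 to 0.086 for Itgav (-0.0074 with limma-voom), -0.22 to 0.62 for Itgad, -0.046 to 0.094 for Itga1, -0.21 to 0.44 for Itga10, -0.42 to 0.11 for Itgb4, -0.44 to 0.69 for Itga2b, -0.18 to 0.62 for Pecam1, -0.084 to 0.49 for Itgax, -0.13 to 0.69 for Itga2, -0.33 to 0.054 for Itga11 and -0.10 to 0.38 for Itgb6. Without animals 220 and 221, Itga2b was -0.25 and Itga8 -0.13 in I-UI, Itga2b -0.11 in I-C, and Itgax -0.087, Itgad -0.046 and Pecam1 -0.061 in UI-C. The cause was not tested. Sele, Selplg and Madcam1 had as few as 4 reads in a library.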
